A study of Homo sapiens with 2 samples.

Results

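The 578 loci described here are the rows of a read count table whose identifier is a StringTie locus number (MSTRG followed by a number) in place of an NCBI gene identifier. All such rows were taken, 578 of 46865 loci in the table, and the other 46287 loci carried a gene identifier. RNA came from primitive macrophages, a model of microglia, differentiated for 30 days from 1231A3, a line of human induced pluripotent stem cells with the genotype label wild-type. The PNU282987 library came from cells given 100 µM of PNU282987, which fully activates α7 nicotinic receptors for acetylcholine, for 12 h, and the Control library from cells whose own labels name no agonist. The protocol text with dose and time stands on both samples, a vehicle is not stated, and the treatment field of the PNU282987 sample names amyloid β (written "amiroid β") in place of PNU282987, so the samples were grouped by title. Each group is 1 library of 1 cell line, so the ratios below compare 2 libraries, have no replicate check and carry no p-value.

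StringTie builds transcript models from aligned reads, so it reports transcription also where an annotation lists none. Each model is then compared with the annotation and given a class code. Code u marks a model between genes, i one lying wholly within an intron, o an exon overlap on the same strand that keeps no intron chain, and x an exon overlap on the opposite strand. Code p marks a possible run-on of the polymerase past a gene's end, y a model that holds an annotated transcript inside its intron, and s an intron match on the opposite strand. Transcripts between and inside genes are known from macrophages as enhancer RNA and long non-coding RNA.

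By code, 190 loci were intergenic (u, 32.9%), 144 intronic (i, 24.9%), 88 same-strand overlaps (o, 15.2%), 80 antisense overlaps (x, 13.8%), 38 possible run-ons (p), 19 of code y and 8 of code s, and 11 held transcripts of more than one code. The table gives neither coordinates, length nor sequence for them, so reads can be set beside each other between libraries for 1 locus but not per length between loci. Position was therefore read only as an order. StringTie numbers run along the genome, and some numbers are also carried by transcripts of identified genes. Of 3470 such numbers that could be checked, 3470 lay on the chromosome of their flanking numbers and 3445 (99.28%) between them in the RefSeq annotation of GRCh38. Flanking numbers placed 566 of the 578 loci in spans with a median of 824 kb, and 12 could not be placed. Chromosome 1 held 52 of them, chromosome 19 held 38 and chromosome 7 held 35. A flanking gene below is the nearest numbered one and is not a name for the locus.

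The sequences shown belong to a microRNA family and a gene met at assembled loci with 0 reads in one library. The first is the mature microRNA of the MIR3648 family, which lies in the transcribed spacer of the ribosomal RNA precursor, as RefSeq lists it at MIR3648-2 (GRCh38.p14, chr21:8987026-8987046, plus strand, 21 bases, 17 of them G or C). It is shown as that family's microRNA only: the gene that carries the number of MSTRG.12234 is MIR3648-1, not MIR3648-2. The capitals mark the seed, bases 2 to 8. The second is the 250 bases before the annotated start of IER2, an immediate early gene, from RefSeq (GRCh38.p14, chr19:13150161-13150410, plus strand, 174 of 250 bases G or C). IER2 carries the number of MSTRG.9575. Capitals mark 3 matches to GGGCGG on either strand, a motif found in 42.6% of 35116 promoters over the same stretch. TATAAA and TGACGTCA, also searched on both strands without overlap with GGGCGG, had no match, and 10.7% and 1.65% of those promoters held them. These matches describe letters only.
hsa-miR-3648: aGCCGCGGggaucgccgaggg
IER2 upstream: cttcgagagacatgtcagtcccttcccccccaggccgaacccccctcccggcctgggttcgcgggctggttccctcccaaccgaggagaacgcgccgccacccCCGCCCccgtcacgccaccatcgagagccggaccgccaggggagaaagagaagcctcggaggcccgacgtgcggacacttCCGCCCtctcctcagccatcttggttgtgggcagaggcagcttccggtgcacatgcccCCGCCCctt

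The PNU282987 library held 36134391 reads and the Control library 39316475. The floor, the limit that a count of 0 allows (3 reads), was 0.0823 CPM (counts scaled to library size) in PNU282987 and 0.0770 CPM in Control. Of 10 macrophage markers 10 had at least 1 CPM, with 5750 CPM summed in PNU282987 and 5650 CPM in Control. Single markers were not level. CD14 (539 CPM in PNU282987, 96.3 in Control) and ITGAM (473 in PNU282987, 138 in Control) were higher in PNU282987. CD68 (1180 in PNU282987, 1690 in Control) and CSF1R (1060 in PNU282987, 1290 in Control) were lower. Of 5 pluripotent markers none reached 1 CPM, with POU5F1 at 0 in both. Of 5 mesenchymal markers 5 did, at 2510 CPM summed in PNU282987 and 2210 CPM in Control, led by the collagen gene COL3A1 at 1350 CPM in PNU282987 and 1160 CPM in Control. Of 5 endothelial markers 4 did, at 106 CPM summed in PNU282987 and 152 CPM in Control, and all 4 erythroid markers were at 0. Their part in the ratios below was not tested.

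Assembled loci held 369354 reads in PNU282987 and 348038 in Control. That is 1.02% of all reads in PNU282987 (exact 95% binomial interval 1.019 to 1.025%) and 0.885% in Control (0.8823 to 0.8882%). Intervals cover counting error only. Most of these reads belonged to few loci. The 6 loci with the most reads held 73.6% of them in PNU282987 and 76.7% in Control, and without these 6 the share was 0.270% in PNU282987 and 0.206% in Control. The median locus had 43.5 reads in PNU282987 and 45.5 in Control. Reads were present at 539 loci in PNU282987 and 515 in Control, 39 loci were at 0 in PNU282987 and 63 in Control, and 21 were at 0 in both.

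**Figure D1:**
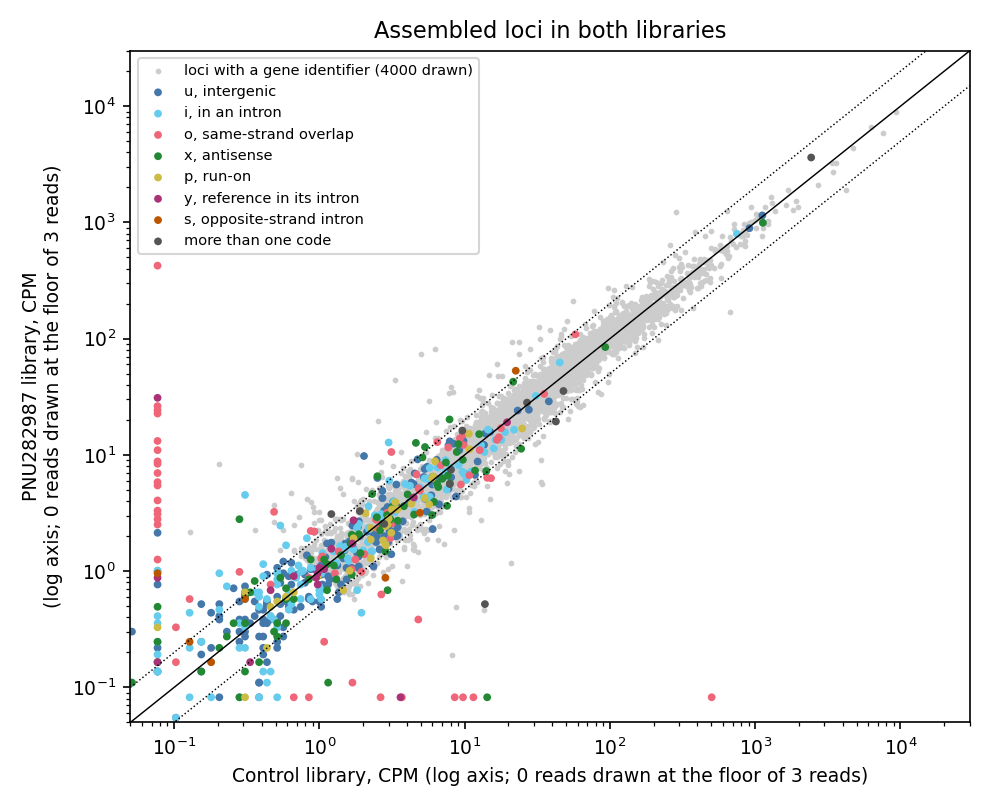
Level of each assembled locus in the PNU282987 library (vertical) and the Control library (horizontal), in CPM on log axes, coloured by class code, over 4000 loci with a gene identifier in grey; the solid line is equality and the dotted lines 2-fold. Loci with 0 reads in a library are drawn at its floor of 3 reads, loci with at most 3 reads in both are left out, and the locus at the top of the left edge is MSTRG.19226 with 425 CPM in PNU282987.

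The most read locus was MSTRG.12240 (codes o and u), which the numbering puts on chromosome 21 between MIR3648-1 and TEKT4P2, a stretch that also holds the ribosomal precursor genes RNA45SN1 and RNA45SN3. It had 132104 reads in PNU282987 and 94690 in Control, 3620 CPM in PNU282987 and 2430 CPM in Control, a ratio of 1.49. Its log2 ratio was 0.58 (0.56 to 0.59). Close to it by number lies MSTRG.12234 (4 transcripts, all o), with 0 reads in PNU282987 and 19550 in Control. That is at least 4960-fold lower in PNU282987 by the near end of its counting interval. MIR3648-1, which carries the same number, had 4064 reads in PNU282987 and 7886 in Control. MIR3648-1 (chr21:8208473-8208652) sits inside the annotated ribosomal precursor gene RNA45SN2 (chr21:8205988-8219302), which had 68421 reads in PNU282987 and 15362 in Control. The other precursor copies differed less, with 23856 reads in PNU282987 and 20710 in Control at RNA45SN1, and 59775 in PNU282987 and 50459 in Control at RNA45SN3. RNA28SN1 had 118637 reads in PNU282987 and 89550 in Control. RNA28SN2 (chr21:8213888-8218941), which lies inside RNA45SN2, went the other way, with 45799 reads in PNU282987 and 53315 in Control, log2 -0.12. RNA28SN3 was listed at 0 in both.

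These ribosomal copies are nearly identical, so how reads were divided among them is uncertain, and sums were compared. MSTRG.12234 and MSTRG.12240 together had 132104 reads in PNU282987 and 114240 in Control, a log2 ratio of 0.31. MSTRG.12234 with RNA45SN2 gave 68421 reads in PNU282987 and 34912 in Control, log2 1.07, without the reads counted at RNA28SN2. The identified ribosomal loci summed to 316488 reads in PNU282987 and 229396 in Control, 1.47-fold, and with both assembled loci and MIR3648-1 to 452656 in PNU282987 and 351522 in Control, 1.38-fold. So MSTRG.12234 and RNA45SN2 differed in opposite directions, and the sum over the loci taken here was higher in PNU282987 by less than 2-fold. Further ribosomal copies may lie outside that sum. The library kit selects mRNA, so how much ribosomal RNA remained in each library also enters these reads. Its part was not tested.

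A group of 3 well-read loci lay on chromosome 1. MSTRG.19 (u) had 41830 reads in PNU282987 and 43823 in Control, MSTRG.20 (x) had 36205 in PNU282987 and 44131 in Control, and MSTRG.22 (u) had 32509 in PNU282987 and 35567 in Control. All were nearly level, with log2 ratios of 0.03, -0.19 and -0.03. Their numbers fall between LOC729737 and LOC100288069 (chr1:134773-778634), a span with 90 RefSeq genes that include 7 nuclear copies of mitochondrial genes, among them MTND1P23, MTND2P28, MTCO1P12 and MTATP6P1. Together they took 0.306% of all reads in PNU282987 and 0.314% in Control, a log2 ratio of -0.06. The 11 mitochondrially encoded mRNAs took 5.48% in each library, log2 -0.03. Whether reads of mitochondrial mRNA were placed at these loci was not tested. MSTRG.10544 (i), placed between BIRC6, a ubiquitin ligase that restrains cell death, and RASGRP3, an activator of Ras, had 29095 reads in PNU282987 and 29131 in Control, log2 0.09. MSTRG.4462 (x), on chromosome 12, had 3088 reads in PNU282987 and 3619 in Control, log2 -0.13. MSTRG.923 (i), placed between GBP2, an interferon-induced GTPase, and EVI5 on chromosome 1, had 2279 reads in PNU282987 and 1760 in Control, 1.38-fold (1.30 to 1.47).

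Ratios could be compared at 329 of the 578 loci (56.9%), those with a mean of at least 1 CPM over both libraries. A locus was called when its ratio was at least 2-fold, its exact 95% counting interval excluded 1 and its mean reached 1 CPM, with a library at 0 set to the floor. By this rule 37 assembled loci were higher in PNU282987 and 25 lower, 18.8% of those compared, where 5.77% of all 14269 loci compared were called. In each direction the shares were 11.2% higher and 7.60% lower, against 2.96% and 2.81% of all loci. Loci with a gene identifier were called in 5.47% of 13940 cases, and annotated long non-coding RNA loci in 12.6% of 715. The middle of the distribution lay near 0, with a median log2 ratio of -0.03 (quartiles -0.48 and 0.37) for assembled loci, -0.03 for long non-coding RNA loci and -0.01 for all loci. Above 1 were 163 ratios, and 166 were below.

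Loci with 0 reads in a library made up a large share of the calls. Of the 37 higher loci 17 had 0 reads in Control, and of the 25 lower loci 8 had 0 reads in PNU282987. Among the 304 assembled loci with reads in both libraries, 20 were called higher and 17 lower, 12.2%, beside 12.6% of long non-coding RNA loci and 5.4% of loci with a gene identifier taken the same way. Within 1.5-fold lay 68.1% of these assembled loci, 69.1% of long non-coding RNA loci and 82.9% of loci with a gene identifier.

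Assembled loci were mostly low, so the shares were also taken by read level. Between 1 and 2 CPM 26.7% of 90 assembled loci were called, and 15.3% of 1215 loci with a gene identifier. Between 2 and 5 CPM the shares were 14% of 107 assembled and 11.3% of 1615 identified loci. Between 5 and 10 CPM they were 15.3% of 72 assembled and 5.90% of 1424 identified loci. At 10 CPM and over they were 20.0% of 60 assembled and 3.20% of 9686 identified loci. In all 4 bands the assembled share was the higher one, and with reads in both libraries required it was 20.5%, 7.07%, 10.3% and 11.1% from the lowest band up, below that of identified loci in the band from 2 to 5 CPM.

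**Figure D2:**
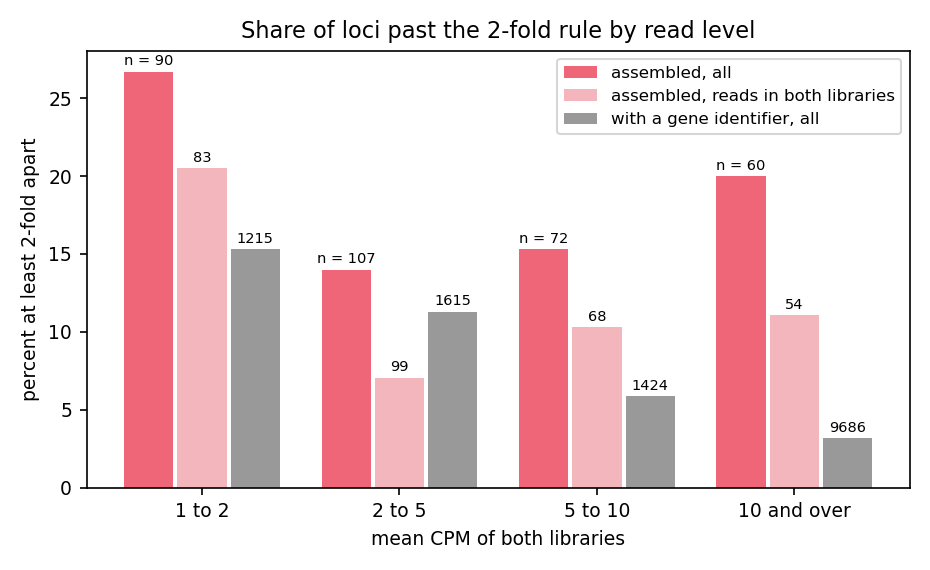
Percent of loci called at least 2-fold apart between PNU282987 and Control, by mean CPM of both libraries, for assembled loci (all, and those with reads in both libraries) and loci with a gene identifier; numbers above the bars are loci compared. At 10 CPM and over the bars stand at 20.0%, 11.1% and 3.20%.

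The class codes differed widely in this. Same-strand overlaps (o) held 30 of the 62 calls, 20 higher and 10 lower, 48.4% of 62 loci compared. Intergenic loci (u) had 4 higher and 4 lower, 8.25% of 97, and intronic loci (i) 5 higher and 2 lower of 70. Antisense loci (x) had 5 higher and 4 lower, 17.6% of 51. Possible run-ons (p) had 1 call, lower, among 26 loci. Code y had 1 higher and 1 lower among 9, code s 1 and 1 among 3, and loci of mixed code 1 higher and 2 lower among 11. Of the 30 calls in code o, 8 had reads in both libraries, whereas all 8 of code u and all 7 of code i did. Median log2 ratios were close to 0 in the large classes, at -0.09 for u, 0.03 for i, 0.15 for o, -0.09 for x and -0.13 for p, and with reads in both libraries the median for o was -0.03.

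The most read loci of the smaller classes were not called, except MSTRG.19824 of code y and MSTRG.17910 of code s. Among possible run-ons, MSTRG.12245, in the same chromosome 21 stretch as MSTRG.12240, had 617 reads in PNU282987 and 971 in Control, log2 -0.56 (-0.71 to -0.41). MSTRG.9851, between ZNF875 and PSMD8 on chromosome 19, had 555 in PNU282987 and 418 in Control, log2 0.51 (0.32 to 0.69), so the best counted run-ons differed in opposite directions. In code y, MSTRG.2965, which holds 5 transcripts and lies between TRIM21, an antibody receptor of the cytosol, and FAM160A2, had 695 in PNU282987 and 765 in Control, log2 -0.04. In code s, MSTRG.14243 had 116 in PNU282987 and 192 in Control, log2 -0.63. Of mixed code, MSTRG.18623, between FOCAD and MTAP on chromosome 9, had 1295 in PNU282987 and 1867 in Control, log2 -0.43.

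**Figure D3:**
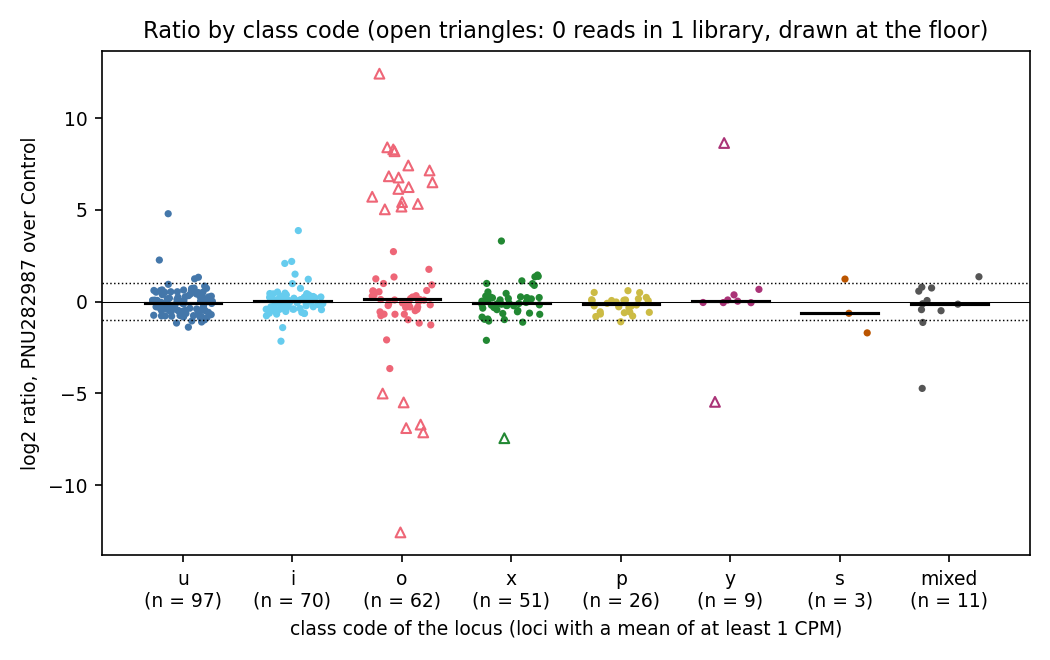
Log2 ratio of PNU282987 over Control for each assembled locus with a mean of at least 1 CPM, by class code; bars are medians, dotted lines 2-fold, and open triangles loci with 0 reads in 1 library, drawn at their ratio to the floor of 3 reads. The triangles above 3 and below -3 are almost all in class o, while the medians lie between -0.13 and 0.15 in u, i, o, x and p.

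Zeros were counted for all loci with at least 10 reads in a library, with no filter on the mean. Assembled loci had 26 with 0 reads in Control, where 0.823% of all 17988 such loci did, and 12 with 0 reads in PNU282987, where 0.867% did. Together these were 7.48% of 508 assembled loci, 1.52% of 17480 loci with a gene identifier and 4.99% of 1784 long non-coding RNA loci, against 1.69% of all. With at least 100 reads in a library the shares were 24 of 235 assembled loci (10.2%), 5 of 12522 with a gene identifier (0.0399%) and 0 of 418 long non-coding RNA loci, against 0.227% of all. Assembled loci thus made up 24 of the 29 loci in the table with at least 100 reads in one library and 0 in the other. Of these 24, 16 had 0 reads in Control and 8 had 0 in PNU282987, 21 were of code o, 2 of code y and 1 of code x, and none was of code u or i. The reads of the 38 loci with at least 10 reads summed to 22280 in PNU282987 and 21736 in Control. Of these, 15491 reads in PNU282987 were at MSTRG.19226 and 19550 in Control at MSTRG.12234, and without both loci the sums were 6789 in PNU282987 and 2186 in Control.

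**Figure D4:**
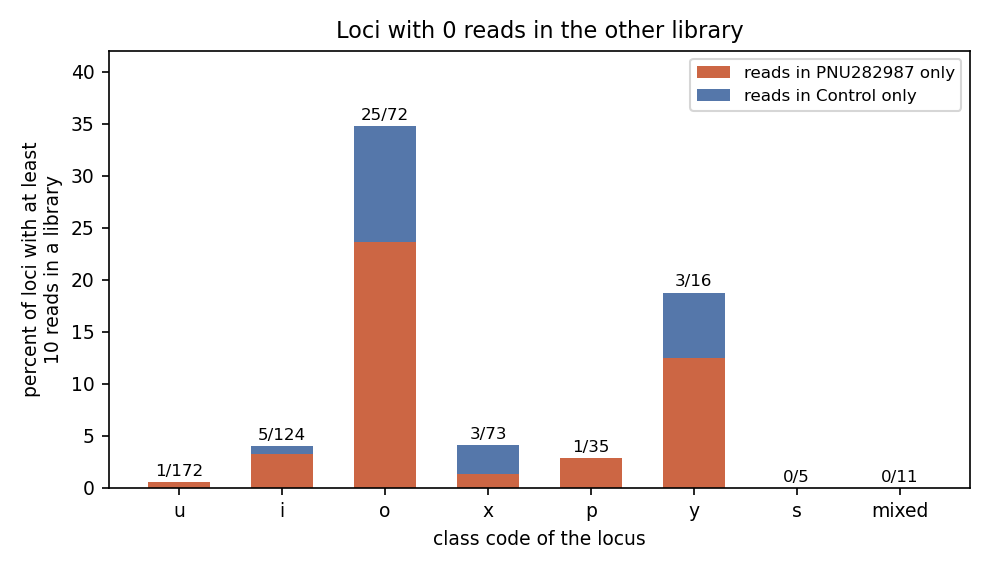
Percent of assembled loci with at least 10 reads in one library and 0 in the other, by class code, stacked by the library that held the reads; numbers above the bars give loci with a 0 over all loci with at least 10 reads in a library. Code o stands at 34.7% (25 of 72) and code u at 0.581% (1 of 172).

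The highest counts beside a 0 in Control belonged to MSTRG.19226 (o), placed on chromosome 9 between NTNG2 and RALGDS. It had 15491 reads in PNU282987 and 0 in Control, at least 4490-fold higher by the near end of its counting interval. MSTRG.19824 (y), on chromosome X between THOC2 and SASH3, had 1129 reads in PNU282987 and 0 in Control, at least 327-fold higher by the same bound. MSTRG.9575 (o) had 958 reads in PNU282987 and 0 in Control, at least 277-fold. MSTRG.3990 (o, between ERC1 and CACNA2D4 on chromosome 12) had 885 reads in PNU282987 and 0 in Control, at least 256-fold. MSTRG.5884 (o, between ANGEL1 and AHSA1 on chromosome 14) had 826 in PNU282987 and 0 in Control, at least 239-fold. In PNU282987 MSTRG.14006 had 483 reads, MSTRG.18027 had 400, MSTRG.14871 had 321, MSTRG.11764 had 306 and MSTRG.9520 had 255, each of code o and each with 0 in Control. MSTRG.11764 lies between SIGLEC1, a sialic acid receptor of macrophages, and MAVS, an adaptor of antiviral RNA sensing, and MSTRG.9520 between ACP5, the tartrate-resistant acid phosphatase of macrophages and osteoclasts, and ZNF700.

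After MSTRG.12234, the highest counts beside a 0 in PNU282987 were led by MSTRG.9604 (x), placed between NDUFB7 and ADGRE2, an adhesion receptor of myeloid cells. It had 0 reads in PNU282987 and 557 in Control, at least 141-fold lower in PNU282987 by the near end of its interval. MSTRG.9664 (o) was placed between IFI30, a lysosomal thiol reductase of antigen processing, and PGPEP1. It had 0 reads in PNU282987 and 447 in Control, at least 113-fold lower by the same bound. MSTRG.17518 (o, between NAMPT and TFEC) had 0 in PNU282987 and 380 in Control, and MSTRG.9897 (o, between FCGBP and MAP3K10) 0 in PNU282987 and 333 in Control. The rest named by the rule were at 0 in PNU282987, with 144 reads in Control at MSTRG.16342, 141 at MSTRG.19185 (y), 103 at MSTRG.17383, 33 at MSTRG.14484 and 26 at MSTRG.12181. IFI30 itself had 33643 reads in PNU282987 and 33323 in Control, log2 0.11. IFI30 was thus nearly level, but MSTRG.9664 may lie anywhere in its span of 196 kb, which holds 9 counted genes.

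Of the loci called with reads in both libraries, MSTRG.15104 (codes o and u, chromosome 5) was the lowest, with 19 reads in PNU282987 and 537 in Control, 26.4-fold lower (16.8-fold at the near end of the interval). MSTRG.9412 (o) had 14 reads in PNU282987 and 187 in Control, 12.5-fold lower. With MSTRG.15104, 4 of the 5 lower loci on chromosome 5 were placed among the NAIP pseudogenes, and the fifth, MSTRG.15526 (o), lay apart beside HARS2 with 23 reads in PNU282987 and 104 in Control. MSTRG.15105 (u) had 40 reads in PNU282987 and 92 in Control, MSTRG.15119 (o) 232 in PNU282987 and 556 in Control, and MSTRG.15120 (x) 133 in PNU282987 and 295 in Control, between 2.08-fold and 2.24-fold lower. The NAIP copies resemble each other closely, so how reads were divided among them is uncertain.

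Upward, MSTRG.9784 (u, chromosome 19) had 78 reads in PNU282987 and 3 in Control, a ratio of 27.8 with an interval of 9.17 to 138. MSTRG.11278 (i, between TLK1 and WIPF1) had 165 in PNU282987 and 12 in Control, a ratio of 14.7, and MSTRG.15090 (x, between SREK1 and SLC30A5) 102 in PNU282987 and 11 in Control, a ratio of 9.91. Better counted were MSTRG.17910 (s, between ASAH1, the lysosomal acid ceramidase, and INTS10), with 1934 reads in PNU282987 and 878 in Control, 2.35-fold (2.17 to 2.55), and MSTRG.11068 (x, between DBI and RALB), with 736 in PNU282987 and 307 in Control, 2.56-fold (2.24 to 2.94). MSTRG.6779 (i, between CHD2 and MEF2A) had 465 reads in PNU282987 and 117 in Control, 4.25-fold, MSTRG.655 (o, between PLK3 and PRDX1) 388 in PNU282987 and 122 in Control, 3.40-fold, and MSTRG.6549 (u, between ANP32A and PKM) 357 in PNU282987 and 79 in Control, 4.83-fold. Higher loci with reads in both libraries ranged from 2.20 to 27.8-fold with a median of 2.68, and lower ones from 2.07 to 26.4-fold with a median of 2.40. The loci of this paragraph other than MSTRG.17910 were picked after their values were seen, as were MSTRG.15105, MSTRG.15526, MSTRG.15119, MSTRG.15120, MSTRG.7165, MSTRG.10473, MSTRG.11325 and MSTRG.16790.

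The same number on an identified gene gave the closest neighbour the files name. Of the 578 loci 57 shared their number with at least 1 identified gene, 29 of them of code o, 9 each of u and i, 5 of y, 2 of x and 3 of mixed code. Of these 39 reached 1 CPM on average and 14 were called, 10 higher and 4 lower. In 2 of these 14 the gene or genes of that number were called too. Adding the reads of locus and gene left 3 of the 14 called in the locus's direction and 0 in the other, and put 11 within 2-fold and 9 within 1.5-fold. Where the locus held few of the pair's reads, the sum was bound to stay close to the gene and says little on the locus. Such shares ran from 0.969% with RIN2 and 1.43% with SLC35F6 to 6.13% with LPP and 6.66% with ZNF703. Among pairs within 2-fold, the larger shares were 15.9% with ZNF358, 20.5% with NAIPP3, 24.5% with RRN3P3 and 36.8% with IER2.

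MSTRG.9575 and IER2 gave the clearest case. The locus had 958 reads in PNU282987 and 0 in Control, while IER2 had 332 in PNU282987 and 1310 in Control, log2 -1.88 (-2.06 to -1.71). The sum was 1290 reads in PNU282987 and 1310 in Control, log2 0.07 (-0.04 to 0.19), so locus and gene differed in opposite directions and their sum did not reach 2-fold. RRN3P3, a pseudogene of a polymerase I initiation factor, did so at lower counts, with 170 reads in PNU282987 and 286 in Control beside 148 in PNU282987 and 0 in Control at MSTRG.7165, log2 0.25 for the sum. Elsewhere the gene was far larger than the locus. LPP, a LIM protein of cell adhesions, had 4050 reads in PNU282987 and 3352 in Control beside MSTRG.14006, log2 0.53 for the sum. ZNF703, a transcriptional repressor, had 2829 in PNU282987 and 2774 in Control beside MSTRG.18027, log2 0.32 for the sum. SLC35F6 had 3961 in PNU282987 and 5497 in Control beside MSTRG.10473 (118 in PNU282987 and 19 in Control), log2 -0.34 for the sum.

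Sums stayed past 2-fold at MSTRG.12234 with MIR3648-1 (4064 reads in PNU282987 and 27436 in Control, log2 -2.66), at MSTRG.19824 with LOC107985684 (1146 in PNU282987 and 5 in Control) and at MSTRG.11325 with LOC107985782 (379 in PNU282987 and 176 in Control, log2 1.20). In the last of these locus and gene were higher together, with 231 reads in PNU282987 and 98 in Control at the locus, and 148 in PNU282987 and 78 in Control at the gene. For MSTRG.12234 the direction of the sum depended on the partner, as with RNA45SN2, which holds MIR3648-1, it was log2 1.07. MSTRG.15104 with the pseudogene NAIPP3 (873 reads in PNU282987 and 1286 in Control) summed to log2 -0.94, and MSTRG.9412 with the zinc finger gene ZNF358 (458 in PNU282987 and 602 in Control) to -0.65. A further pair differed in opposite directions, the gene past 2-fold and the locus not. MSTRG.3252 (o) had 3986 reads in PNU282987 and 2256 in Control, log2 0.92, and MPEG1, the pore-forming protein perforin-2 of macrophages, had 8132 in PNU282987 and 24843 in Control, log2 -1.52, with -1.07 for the sum.

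**Figure D5:**
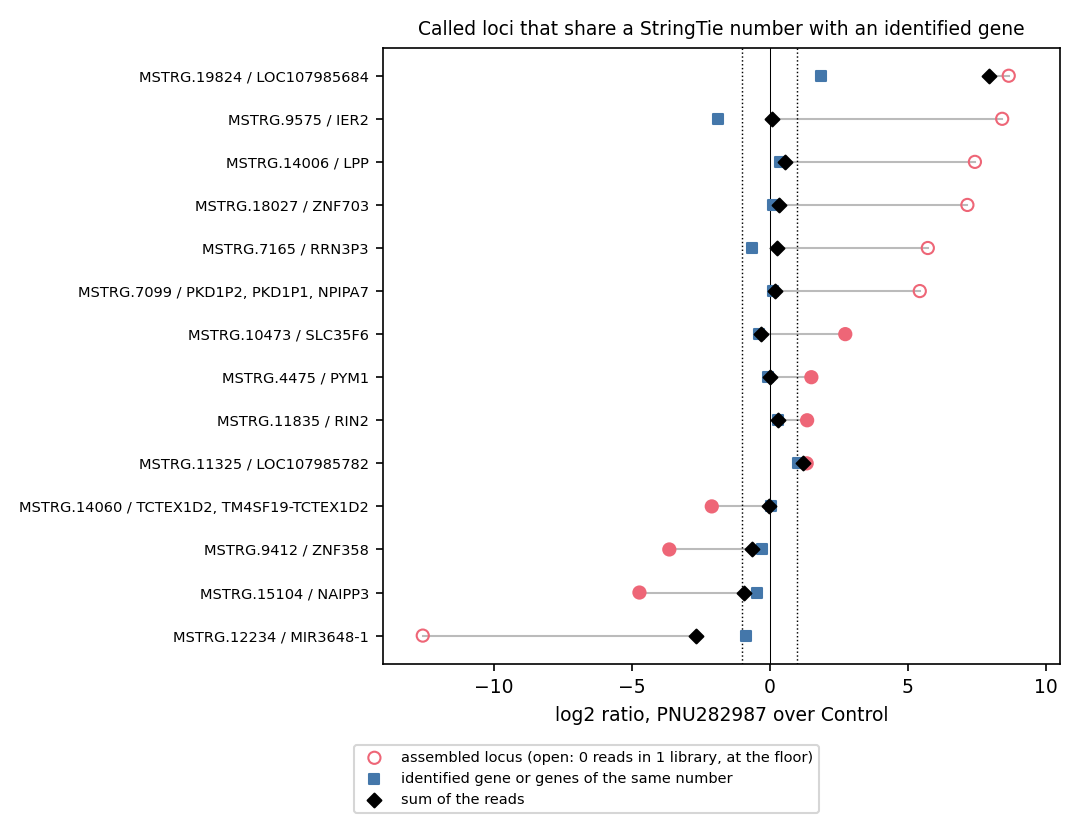
Log2 ratio of PNU282987 over Control for the 14 called assembled loci that share a StringTie number with identified genes (circles, open where a library had 0 reads), for those genes (squares) and for the summed reads (diamonds). Diamonds lie within the dotted 2-fold lines for 11 of the 14, and for MSTRG.9575 with IER2 the sum stands at 0.07. Where the locus holds few of the pair's reads, the diamond is bound to stay close to the square.

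For loci with 0 reads in a library and no gene of their number, the identified gene in the span with the largest opposite difference in reads was looked up. It was chosen for that difference, so the pairs are values side by side and show no link. Beside MSTRG.19226 it was EEF1A1P5, a processed pseudogene of a translation elongation factor (chr9:133019423-133021169), 1 of 15 counted genes in the span, with 6210 reads in PNU282987 and 26165 in Control and a sum of 21701 in PNU282987 and 26165 in Control, log2 -0.17. Beside MSTRG.5884 it was IRF2BPL, with 741 reads in PNU282987 and 2015 in Control and log2 -0.27 for the sum. Beside MSTRG.16790 (213 reads in PNU282987 and 0 in Control) it was RAMACL, with 7 in PNU282987 and 319 in Control. Beside MSTRG.3990 it was FBXL14, with 27 reads in PNU282987 and 304 in Control, and the sum stayed apart at log2 1.68. At the other loci looked up with 0 in Control, the gene so chosen had log2 ratios from -0.27 (CENPB) to -1.14 (LOC285442). At those with 0 in PNU282987 it had 2.38 beside MSTRG.9897 (PRR13P5). Beside the rest it lay between 0.09 (LINC01503) and 0.55 (ELOVL5). The choice was by reads, and a well-read gene can differ by many reads at a small ratio. ELOVL5 had 5520 reads in PNU282987 and 4034 in Control, beside 0 in PNU282987 and 144 in Control at MSTRG.16342. LINC01503 had 206 reads in PNU282987 and 207 in Control, beside 0 in PNU282987 and 141 in Control at MSTRG.19185. These ratios therefore do not show the size of the difference in reads.

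Identified genes 1 number away gave a looser comparison. Over 134 pairs of such a gene and 121 assembled loci, all with at least 1 CPM, Spearman's rho between log2 ratios was 0.26 and Pearson's r 0.11. By code rho was 0.46 over 44 pairs for u, 0.03 over 29 for i, 0.16 over 20 for x, 0.24 over 14 for o and 0.36 over 11 for p. All pairs share the same 2 libraries and some share a locus, so these values describe the libraries and carry no p-value.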

How the data were processed

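RNA of 1 PNU282987 and 1 Control library was prepared with a stranded mRNA kit, per the labels' protocols. According to the submitters' processing notes, the tools were edgeR, StringTie 2.1.3b, HISAT2 2.1.0, Trimmomatic 0.38 and FastQC 0.11.7, with the build GRCh38. Their order and settings, the handling of multi-mapping reads and any use of strand were not given in the sources used here. The authors deposited whole-number read counts per locus, not normalized, per the file headers. Counts of 2 reads outnumbered counts of 1 (979 and 817 loci in PNU282987, 958 and 818 in Control), so a fragment may count as 2 reads and intervals may be too narrow.

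From these counts CPM were computed with TMM factors (1.01 for PNU282987, 0.991 for Control) from edgeR 4.0.16 in R 4.3.3. A call needed a 2-fold ratio, an exact 95% Clopper-Pearson interval excluding 1 and a mean of 1 CPM; a 0 was set to 3 reads. The rule was tested on simulated data with counting error only and with changes placed only at better read loci. That test did not cover changes at low loci, spread between cultures or how reads were divided among loci. No test across samples was possible. Named loci are the 10 most raised and the 10 most lowered (ranked on the interval's bound nearest 1), the 10 with the most reads, up to 10 with a 0 each way and the 2 most read per code, with genes of the same number; others are named as picked later. Members and lists were chosen with earlier results of these data known. Overlapping and antisense loci are uncertain. Alternatives were other scalings (DESeq2 1.42.0 size factors, upper quartile, plain totals), filters, thresholds, thinning and halved counts; summing over a shared number and requiring reads in both libraries were chosen after seeing the data. Promoter and microRNA sequences are from RefSeq tables of GRCh38.p14, matched by symbol. Tables and plots were made with matplotlib 3.10.9, SciPy 1.17.1, pandas 2.3.3 and numpy 2.4.6 in Python 3.11.15.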

Additional observations from a re-analysis of the deposited data

How the results depend on the processing

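Under other scalings (library totals, upper quartile, DESeq2 size factors, factors from identified loci), thinning of Control and halved counts, 37 to 41 loci were higher in PNU282987 and 24 to 25 lower, against 37 and 25. Sums over a shared number gave 31 and 23. Of the 14 called loci that share a number, only 3 stayed called in these sums. Sums with PNPLA3, FAM157B and MPEG1 were called though their loci were not. With the whole interval beyond 2-fold they were 29 and 17. Filter and threshold moved the counts more, by changing which loci could pass. A filter of at least 10 reads in both libraries together gave 65 higher and 44 lower of 523 loci. A mean of at least 10 CPM gave 7 and 5 of 60, a 4-fold threshold 24 and 13 of 329, and reads in both libraries 20 and 17 of 304. Shares of all loci under the 10-read filter, also by class, and under the 4-fold threshold are not given here, so those counts have no background. The 10-read filter gave 13 higher and 9 lower for u, 14 and 9 for i, 23 and 14 for o, and 8 and 6 for x. For p it gave 2 and 2, for y and s 2 and 1 each, and for mixed code 1 and 2. In class s the median log2 ratio was 0.90 under it and -0.63 without. The overall median log2 ratio lay between -0.05 and 0.04 in all settings run. Asking for at least 1 read in place of 10 gave 42 loci with 0 in Control and 18 with 0 in PNU282987, of 557 assembled loci. The share of all loci at that threshold is not given here. Without the most read locus, MSTRG.12240, assembled loci took 0.657% of reads in PNU282987 and 0.644% in Control. No paired analysis was possible because 1 library stands in each group and no test was run, nor could a library be left out. Depth limits loci near 1 CPM, whose intervals are wide, and the spread between cultures is unknown.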
